A study of Mus musculus with 56 samples.

Results

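Liver tumours of 8 mice were compared by bulk RNA sequencing: 4 carried a luciferase that the labels call luc, and 4 carried lucOS, in which luciferase is joined to model antigens that T cells recognise. The members were the AL75 animals whose titles name males, taken from the deposited table of 26 bulk libraries, and the series has 56 samples in all. A gene entered the comparison where it reached 1 TPM in at least 4 of the 8 libraries. TPM is a level corrected for gene length and scaled so that every library has the same total, and 14717 of the 24034 genes kept from the table met that rule.

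Both groups were made in C57BL/6 mice by hydrodynamic tail vein injection, a fast injection that carries plasmids into liver cells. All 8 tumours carried MYC together with nicd, which encodes NOTCH1 in its active, cleaved form, and the antigen is the labelled difference between MYC-luc-nicd and MYC-lucOS-nicd. No treatment was given. The sources used here do not give the animals' age, the time of collection or the promoters of the plasmids. The libraries are called luc 1 to luc 4 and lucOS 1 to lucOS 4, where the number is only a name. Each title carries its own animal number, nothing else says how the samples were kept apart, and p-values therefore measure the spread between these samples. The other 12 bulk tumours, 6 luc and 6 lucOS, carry the same transgenes but no sex in their titles. The Y-linked genes Kdm5d and Uty were at most 0.05 TPM in those 12 tumours and at 0 TPM in healthy liver. In the 8 AL75 tumours Kdm5d was at 4.83 to 19.9 TPM and Uty at 6.86 to 13.5 TPM. By these values the other 12 tumours and the healthy livers are of females and the AL75 tumours of males. Sex and animal series therefore cannot be told apart between those 12 and the 8 AL75 tumours. Healthy liver is represented by 6 libraries.

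A protein that the immune system sees as foreign is cut up inside the tumour cell and shown to CD8 T cells on MHC class I, while macrophages, dendritic cells and B cells show fragments to CD4 T cells on MHC class II. Activated T cells and natural killer cells release interferon gamma, which induces the class II transactivator CIITA and with it the MHC class II genes, and switches on GTPases and T cell attracting chemokines. NOTCH1 signalling in liver turns on Hes and Hey repressors and biliary genes such as Sox9, and MYC drives growth and ribosome production. Bulk tissue does not separate cells: in every result here, fewer cells of a type and less RNA per cell cannot be told apart.

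The labels held where they could be checked. Xist, the RNA that coats the inactive X chromosome of females, stayed at or below 0.99 TPM in the 8 libraries, and the Y-linked helicase gene Ddx3y was between 12.7 and 53.1 TPM. Albumin, the main secreted protein of hepatocytes, was between 231 and 8717 TPM in the 8 tumours against a mean of 88620 TPM in healthy liver. Notch1 was at 690, 433, 1152 and 546 TPM in luc 1 to 4 and at 784, 821, 771 and 569 TPM in lucOS 1 to 4, against a mean of 5.93 TPM in healthy liver. The sources used here do not say whether reads from the introduced nicd count in that row. The NOTCH feedback regulator Nrarp was between 982 and 2016 TPM in all 8 tumours. Myc was between 8.8 and 17 TPM, and that row was not used to check the introduced MYC. Luciferase and the joined antigens have no row in the table used here, so the construct itself was not checked.

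Single libraries stood apart, luc 3 most of all. The first principal component of the 14717 genes held 38% of the variance, and on it luc 3 lay at −81.6 while the other 7 libraries lay between −23.6 and 45.4. The second component, with 25.5%, placed luc 2 at 46 and luc 3 at 29.4 opposite luc 4 at −45.8 and lucOS 3 at −43.9. Genes of microRNAs took 9.22% to 15.4% of the TPM in luc tumours, with luc 3 the highest, and 8.91% to 12.1% in lucOS tumours. The difference of −1.38 percentage points between the group means was within that spread, with p = 0.543 by the exact two-sided permutation test over the 70 splits of 8 libraries.

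**Figure D1:**
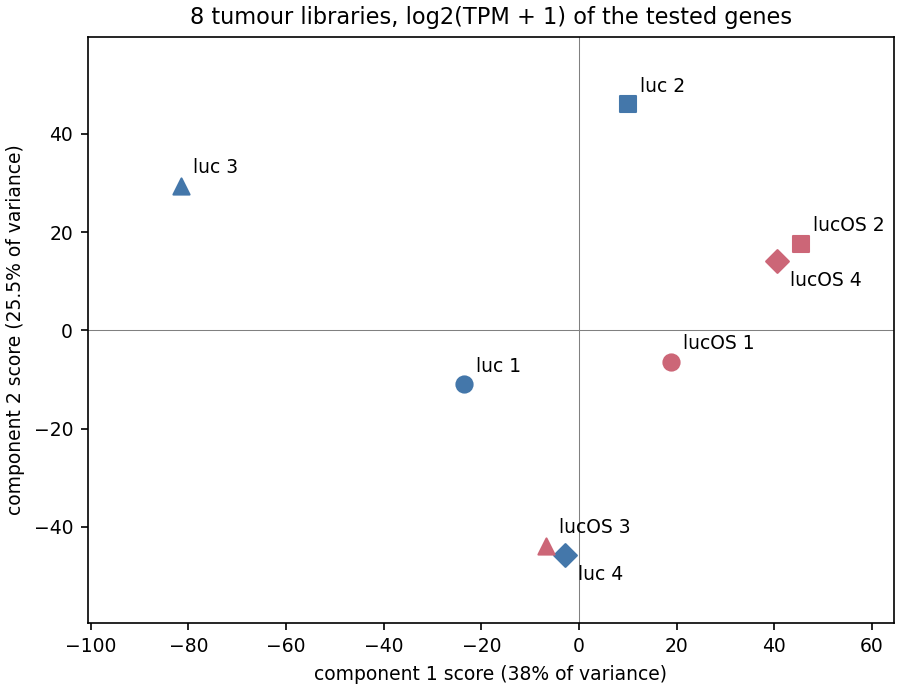
Scores of the 8 libraries on the first and the second principal component of log2(TPM + 1), in blue for luc and red for lucOS, with the share of variance on each axis. Luc 3 lies at −81.6 on the first component, outside the range of −23.6 to 45.4 that the other 7 libraries span.

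No gene passed the test between lucOS and luc tumours in the 8 libraries. The test was limma on log2(TPM + 1), with Benjamini-Hochberg adjustment over the 14717 genes, and a gene was called below an adjusted p of 0.05; 0 were called, which is 0% of those tested. At an unadjusted p below 0.05 there were 1508 genes, or 10.2%. Of these, 1036 were higher with lucOS (7.04% of all genes) and 472 lower (3.21%). This split turned with the scaling: median ratio scaling gave 686 higher and 777 lower, and quantile normalization 717 and 764. The median log2 fold change over all genes was 0.08 as deposited and −0.01 under either scaling, a log2 fold change here being the lucOS mean minus the luc mean of log2(TPM + 1), which understates the change of low genes.

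In 759 genes (5.16%) all 4 lucOS tumours lay above all 4 luc tumours, and in 278 (1.89%) all 4 lay below. A gene that reached 1 TPM in 1 group alone passed the filter through that group, so these counts include genes that had to differ. A fit that took its estimate of the spread from all 20 tumours called 54 of 15453 genes (0.349%) for the same contrast, 40 higher with lucOS (0.259%) and 14 lower (0.0906%). Of those 54 genes, 39 had all lucOS tumours above all luc tumours, 14 had them below and 1 overlapped. The same contrast in the same 8 libraries chose these genes, so separate groups are no added support for the calls. The count of 54 rested on single libraries: it was 578 without luc 4 and 114 without lucOS 3, but 12 without luc 2, 3 without luc 3, 6 without lucOS 1, 18 without lucOS 4 and 0 without lucOS 2. The genes below are therefore described by their 8 values, with higher and lower as descriptions of those values.

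The smallest p belonged to Adgrd1, an adhesion G protein-coupled receptor. Adgrd1 was at 2.90, 2.22, 1.96 and 4.90 TPM in luc 1 to 4 and at 31.1, 59.3, 31.2 and 27.5 TPM in lucOS 1 to 4. The lowest lucOS tumour was several times above the highest luc tumour, and the group means were 2.99 ± 1.33 and 37.3 ± 14.8 TPM (SD, n = 4 each). The log2 fold change was 3.25 ± 0.30 (SE; 95% interval 2.55 to 3.94), with an adjusted p of 0.0538 by limma in the 8-library fit and 0.0181 in the 20-library fit. The adjusted p was below 0.05 in the 8-library fit without microRNA and snoRNA genes (0.039), with array weights (0.014) and without luc 4 (0.0256). Under a filter of 5 TPM in at least 4 libraries it was 0.0458. Adgrd1 met that filter through its lucOS tumours alone, since every luc tumour was under 5 TPM. That value is therefore no added support.

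Mmp17, a membrane-anchored matrix metalloproteinase, had the next largest difference among the genes with the smallest p. Its levels were 6.72, 4.87, 3.94 and 18.5 TPM in luc 1 to 4 and 89.0, 96.7, 52.0 and 64.6 TPM in lucOS 1 to 4. The groups did not overlap, and luc 4 was the highest luc tumour for both Mmp17 and Adgrd1. For Mmp17 the log2 fold change was 3.19 ± 0.42 (SE; 95% interval 2.23 to 4.16), with an adjusted p of 0.152 in the 8-library fit, 0.0201 without luc 4 and 0.0179 in the 20-library fit, all by limma.

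In the 12 tumours of the other series, the ranges of these genes with luc and with lucOS overlapped. Adgrd1 ranged from 6.05 to 59.9 TPM in the 6 other luc tumours and from 7.06 to 39.6 TPM in the 6 other lucOS tumours, and healthy liver held at most 0.37 TPM. Mmp17 ranged from 14.7 to 76.3 TPM in the other luc tumours and from 16.2 to 71.6 TPM in the other lucOS tumours. All 4 AL75 luc tumours were under 6.05 TPM for Adgrd1, the lowest of the other tumours, and luc 1 to 3 were under 14.7 TPM for Mmp17, while lucOS 1 and lucOS 2 were above 76.3 TPM for Mmp17. The construct effect of Adgrd1 differed between the series by 2.96 on the log2 scale, with an adjusted p of 0.332 by limma over all genes, so that difference did not pass.

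Adgrd1 and Mmp17 are neighbours on mouse chromosome 5. In the RefSeq annotation of GRCm38.p6, the build the labels call mm10, Adgrd1 lies at chr5:129096750-129204599 and Mmp17 at chr5:129584151-129611099, 0.38 Mb apart. Between them lies Sfswap, a splicing regulator, at chr5:129501231-129571384. Sfswap was at 50.5, 63.7, 44.5 and 68.5 TPM in luc 1 to 4 and at 57.5, 72.9, 56.6 and 70.7 TPM in lucOS 1 to 4, so its groups overlapped, with a log2 fold change of 0.19. Among the 27 other tested genes within 1.5 Mb, Sfswap included, log2 fold changes ran from −0.44 to 0.95. Only Tpst1 (0.60), Kctd7 (0.70) and Rabgef1 (0.29) of these 27 had an unadjusted p below 0.05.

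**Figure D2:**
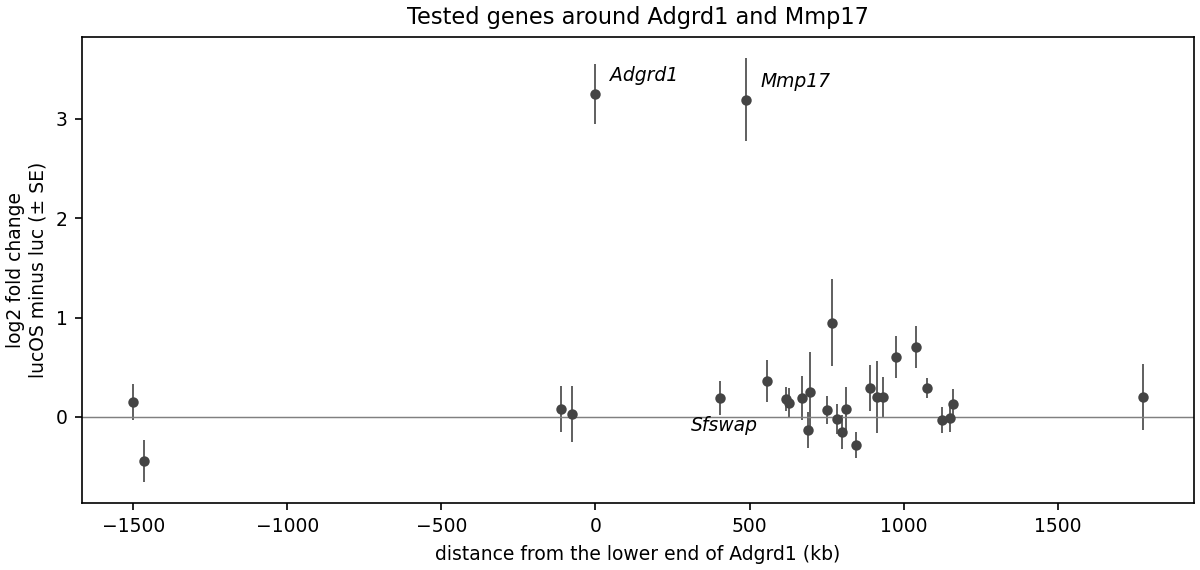
Log2 fold change, lucOS minus luc, of the tested genes around Adgrd1 and Mmp17 against distance in kb, with bars for the standard error. Adgrd1 at 3.25 and Mmp17 at 3.19 stand above the other 27 genes, which lie between −0.44 and 0.95.

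Several of the other genes with the smallest p and higher lucOS levels encode receptors, enzymes and myeloid proteins. Gabbr2, a subunit of the metabotropic GABA receptor, was at 2.11, 2.65, 4.03 and 1.44 TPM in luc 1 to 4 and at 14.0, 14.5, 19.7 and 9.90 TPM in lucOS 1 to 4. As3mt, the enzyme that methylates arsenic, was at 32.0, 27.1, 26.9 and 29.5 TPM in luc tumours and at 58.1, 52.3, 57.3 and 48.0 TPM in lucOS tumours. The groups were separate for both. The log2 fold changes were 2.14 ± 0.28 for Gabbr2 and 0.88 ± 0.11 for As3mt (SE), with an adjusted p of 0.152 for each.

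Clec7a, the beta-glucan receptor dectin-1 of macrophages and dendritic cells, was at 5.99, 7.25, 2.94 and 7.33 TPM in luc 1 to 4 and at 19.8, 22.9, 16 and 25.4 TPM in lucOS 1 to 4. All 4 lucOS tumours lay above the luc tumours, with a log2 fold change of 1.72 ± 0.27 (SE; adjusted p 0.261). Mmp13, a collagenase, was at 2.40 to 2.87 TPM in luc tumours and at 6.04 to 10.4 TPM in lucOS tumours (log2 fold change 1.28). Rab7b, a small GTPase of endosomal transport, was at 3.35 to 4.35 TPM and at 8.64 to 9.60 TPM (1.03). These levels were low, but in Clec7a, Mmp13 and Rab7b no luc tumour reached the lowest lucOS tumour.

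Ube2u, Tvp23a and Ppip5k1 also passed in the 20-library fit. Ube2u, of the ubiquitin-conjugating enzyme family, was at 0.144 to 1.13 TPM in luc tumours and at 4.83 to 12 TPM in lucOS tumours, a log2 fold change of 2.28 with an adjusted p of 0.0181 in that fit. Tvp23a, a Golgi membrane protein, was at 11.4 to 14.8 TPM against 22.5 to 30.9 TPM (0.89, adjusted p 0.008). Ppip5k1, an inositol pyrophosphate kinase, was at 5.14 to 5.50 TPM against 9.13 to 13.9 TPM (1.03, adjusted p 0.0181). In the 8-library fit the adjusted p was 0.232 for Ube2u and 0.261 for Tvp23a and Ppip5k1.

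Among the genes with lower lucOS levels, the smallest p belonged to Fbxo17, a substrate-binding subunit of a ubiquitin ligase. Fbxo17 was at 16.8, 25.9, 27.2 and 15 TPM in luc 1 to 4 and at 6.12, 5.30, 6.50 and 5.84 TPM in lucOS 1 to 4. The 4 lucOS tumours lay close together and below every luc tumour, with a log2 fold change of −1.64 ± 0.22 (SE; adjusted p 0.152). Mfap2, a protein of elastic microfibrils, was at 36.8, 53.7, 53.3 and 24.9 TPM in luc tumours and at 8.83, 8.90, 8.82 and 14.0 TPM in lucOS tumours. LucOS 4 stood above the other lucOS tumours for Mfap2 but below all luc tumours, and the log2 fold change was −1.92 ± 0.27 (SE; adjusted p 0.202).

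Igf2bp3, an RNA-binding protein of fetal tissues and tumours, was at 10.2, 11.8, 23.5 and 7.86 TPM in luc 1 to 4 and at 2.50, 1.17, 3.12 and 1.06 TPM in lucOS 1 to 4. No lucOS tumour reached the lowest luc tumour, and the log2 fold change was −2.23 ± 0.37 (SE; adjusted p 0.261). In the other series Igf2bp3 had a log2 fold change of 0.89, and the difference between the series was −3.12 with an unadjusted p of 0.00038 by limma, which did not pass the adjustment. The related Igf2bp2 had a log2 fold change of −0.88 in the AL75 tumours. Over the 12 tested fetal liver and growth genes, 4 had a positive log2 fold change and the median was −0.11, while Igf2, the fetal growth factor itself, was at 0.39 with overlapping groups.

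The remaining genes of the 10 with the smallest p in this direction had smaller or low-level differences. Grk6, a kinase that desensitises G protein-coupled receptors, was at 72.4, 80.5, 69.1 and 72.9 TPM in luc 1 to 4 and at 54.3, 50.04, 49.7 and 45.7 TPM in lucOS 1 to 4. Its log2 fold change was −0.55 ± 0.10 (SE), with an adjusted p of 0.33 in the 8-library fit and 0.0179 in the 20-library fit. Msantd3 (−0.56), Ptgfrn, an immunoglobulin superfamily membrane protein (−0.91), Aebp1, a matrix protein of fibroblasts (−0.69), Ttyh3, a membrane channel protein (−0.66), Slitrk5, a synaptic adhesion protein (−1.80), and Zfp783 (−1.62) also had all lucOS tumours below all luc tumours. Of these 6, Msantd3 alone passed in the 20-library fit, with an adjusted p of 0.04.

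**Figure D3:**
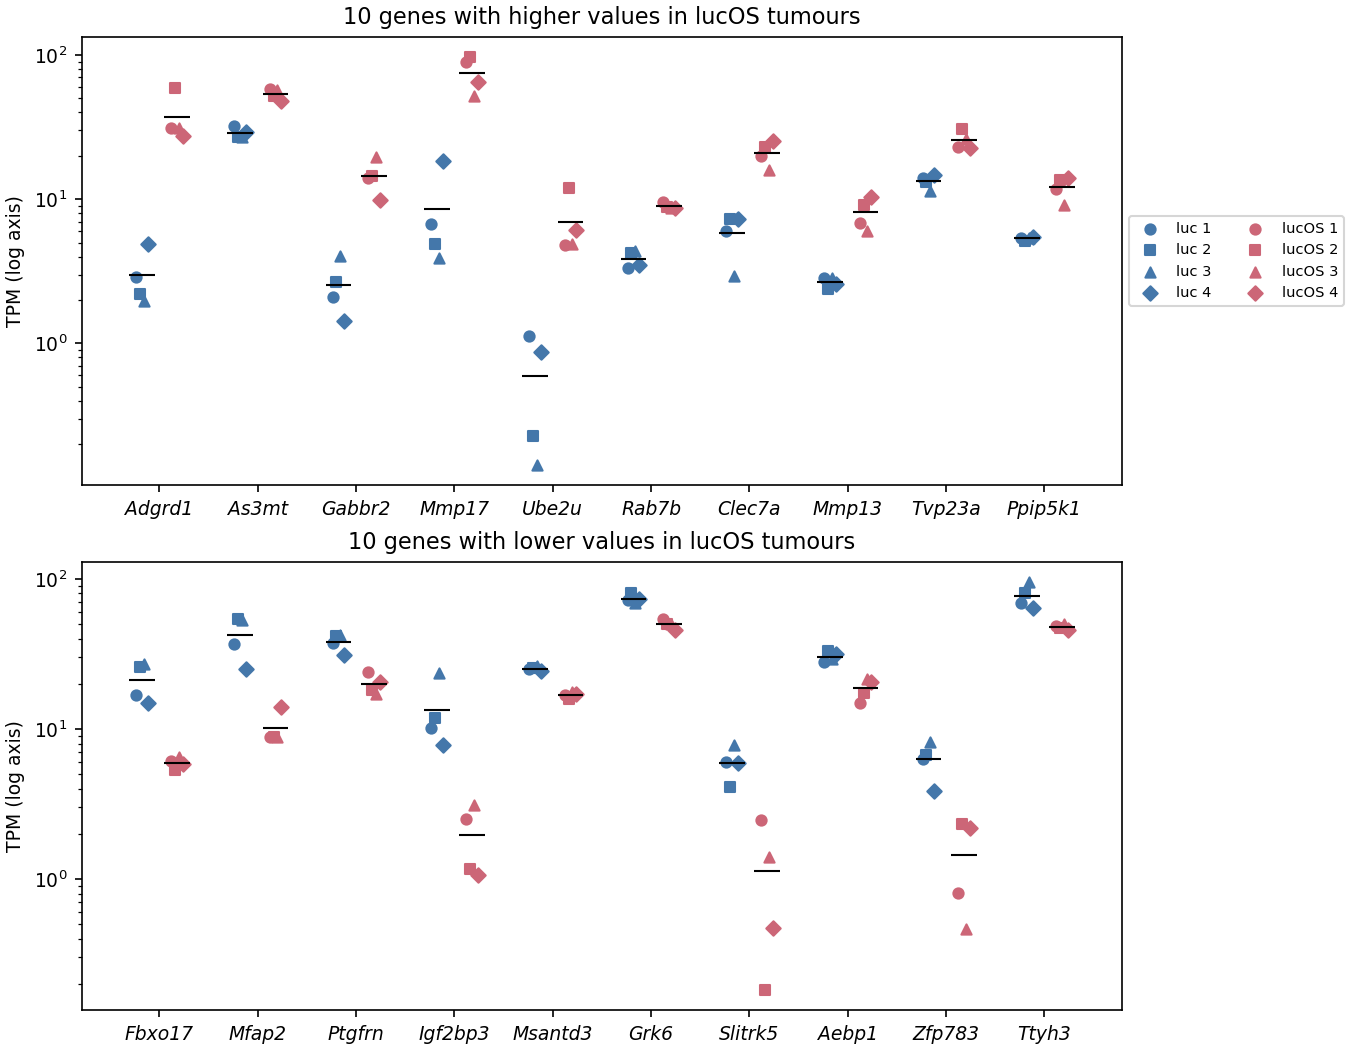
TPM on a log10 axis in each of the 8 tumours for the named genes with the smallest p, 10 higher and 10 lower with lucOS, in blue for luc and red for lucOS, 1 symbol shape per library number, and a line at each group's mean. The 4 Adgrd1 points of lucOS tumours lie from 27.5 to 59.3 TPM and those of luc tumours from 1.96 to 4.90 TPM.

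The 54 genes called in the 20-library fit included the metabolic genes Ndufa8, Ogdh, Acat1 and Acaa1a on the higher side. Ndufa8, a subunit of respiratory complex I, was at 235, 189, 145 and 243 TPM in luc 1 to 4 and at 434, 411, 390 and 293 TPM in lucOS 1 to 4 (log2 fold change 0.92, adjusted p 0.0387). Ogdh, of the 2-oxoglutarate dehydrogenase complex in the citric acid cycle, was at 54.6 to 88.0 TPM against 103 to 132 TPM (0.73). Acat1, which forms and breaks down acetoacetyl-CoA, was at 80.6 to 132 TPM against 152 to 205 TPM (0.78), and the peroxisomal thiolase Acaa1a at 46.4 to 68.2 TPM against 76.5 to 89.6 TPM (0.65). In each of these 4 genes the lowest lucOS tumour was above the highest luc tumour.

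The higher calls also included receptors, a transporter and a chromatin remodeller. Adcyap1r1, the receptor of the neuropeptide PACAP, was at 148, 112, 27.1 and 184 TPM in luc 1 to 4 and at 327, 407, 359 and 386 TPM in lucOS 1 to 4 (log2 fold change 1.93, adjusted p 0.0444). Mas1, a receptor of the angiotensin system, was at 1.49 to 7.37 TPM against 15.2 to 30.2 TPM (2.05), and the neutral amino acid transporter gene Slc7a8 at 5.75 to 15.8 TPM against 27.8 to 41.5 TPM (1.62). Luc 3 was the lowest tumour for all 3. Smarca2, an ATPase of the SWI/SNF chromatin remodellers, was at 15.6 to 33.4 TPM against 39.2 to 82.7 TPM (1.35, adjusted p 0.0368).

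On the lower side, the calls of the 20-library fit included Snai1, Lamb1 and Alpl. Snai1, a repressor of E-cadherin, was at 10.8, 20.3, 21.9 and 12.5 TPM in luc 1 to 4 and at 6.70, 5.39, 4.49 and 7.80 TPM in lucOS 1 to 4 (log2 fold change −1.26, adjusted p 0.0353). Lamb1, a laminin chain of basement membranes, was at 156, 149, 185 and 90.7 TPM against 80.3, 29.0, 44.9 and 57.8 TPM (−1.48). Alpl, tissue-nonspecific alkaline phosphatase, had a log2 fold change of −1.91. The groups were separate in these 3 genes.

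The hairpin gene of miR-210, a microRNA known for its induction by low oxygen, was also among the lower calls. The mature arms are shown because the row counts reads on the hairpin gene at chr7:141221384-141221493 (minus strand, GRCm38.p6) and not on either arm. Sequences are from RefSeq, 5′ to 3′, with the seed (bases 2 to 8) in capitals.
mmu-miR-210-3p: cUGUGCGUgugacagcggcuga
mmu-miR-210-5p: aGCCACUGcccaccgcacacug
Mir210 was at 6.44, 8.27, 19.5 and 9.78 TPM in luc 1 to 4 and at 0.802, 0.533, 0 and 4.02 TPM in lucOS 1 to 4. Every lucOS tumour lay below every luc tumour, with a log2 fold change of −2.53 ± 0.52 (SE) and an adjusted p of 0.33 in the 8-library fit and 0.0443 in the 20-library fit. A gene this short gains or loses much TPM with few reads.

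Genes of antigen presentation on MHC class II had higher levels in lucOS tumours, carried mostly by lucOS 2 and lucOS 4. All 10 tested members of the list had a positive log2 fold change, against 60.9% of all genes, with a median of 1.09 against 0.08. An unadjusted p below 0.05 was reached by 6 of 10 (7.04% of all genes in this direction), and 1 of 10 had separate groups (5.16%). The count of 6 was 1 of 10 when luc 1, luc 3, luc 4, lucOS 2 or lucOS 4 was left out, while the median stayed between 0.79 and 1.40 over the 8 fits that each left out a library. None of the 10 passed the adjustment over all genes.

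H2-DMb1, a chain of the H2-DM molecule that loads peptides onto class II, was at 7.53, 14.1, 8.45 and 9.17 TPM in luc 1 to 4 and at 19.6, 59.9, 14.2 and 58.0 TPM in lucOS 1 to 4. The groups were just separate, since lucOS 3 at 14.2 TPM lay next to luc 2 at 14.1 TPM, and the log2 fold change was 1.63 ± 0.47 (SE; adjusted p 0.439). Cd74, the invariant chain that holds class II molecules until they are loaded, was at 105, 240, 90.5 and 130 TPM against 236, 771, 133 and 894 TPM. Its groups overlapped in lucOS 1 and lucOS 3, with a log2 fold change of 1.54 ± 0.63 (SE; adjusted p 0.477).

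The class II chains H2-Aa and H2-Eb1 followed the same order. H2-Aa was at 42.4, 81.1, 38.1 and 49.5 TPM in luc 1 to 4 and at 82.1, 282, 50.9 and 363 TPM in lucOS 1 to 4 (log2 fold change 1.49), and H2-Eb1 had a log2 fold change of 1.51. Their transactivator Ciita was at 0.761, 1.90, 0.623 and 0.801 TPM against 1.98, 5.30, 1.13 and 7.46 TPM (1.13). In H2-Aa, H2-Eb1, Cd74 and Ciita the highest tumours were lucOS 2 and lucOS 4, and lucOS 3 lay inside the luc range. H2-Ab1 had a log2 fold change of 0.68, with luc 3 at 290 TPM above lucOS 1 and lucOS 3, while H2-Oa, a chain of the H2-DO inhibitor of peptide loading, was at 0.03.

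Targets of interferon gamma showed the same 2 tumours at the top. All 18 tested members had a positive log2 fold change (60.9% of all genes), with a median of 0.86, and 3 had an unadjusted p below 0.05 (7.04% of all genes higher). Cxcl9, a chemokine that attracts activated T cells, was at 0.1, 1.43, 0.256 and 0.159 TPM against 1.43, 9.44, 1.48 and 6.28 TPM. The groups met at 1.43 TPM, lucOS 2 and lucOS 4 were highest, and the log2 fold change was 1.72 ± 0.53 (SE; adjusted p 0.439). The GTPases Tgtp2 (1.45), Igtp (1.19), Gbp2 (1.02) and Irgm2 (0.97) had overlapping groups. Across the fits without 1 library the list's median stayed between 0.50 and 1.20, and the count at an unadjusted p below 0.05 was 8 without lucOS 3, 6 without luc 2, 5 without lucOS 1 and 2 when 1 of the other 5 libraries was left out.

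The promoters of these lists hold short motifs that are known from the regulation of such genes, and the 100 bases before the start of 6 members are shown to let the shared letters be seen. Sequences are from RefSeq on GRCm38.p6, on the gene's own strand and 5′ to 3′. Capitals mark CCAAT or its reverse complement ATTGG in the class II genes, and GAAA, any 2 bases and GAAA again, or the reverse complement of that pattern, in the interferon targets.
H2-DMb1, chr17:34153091-34153190, plus strand: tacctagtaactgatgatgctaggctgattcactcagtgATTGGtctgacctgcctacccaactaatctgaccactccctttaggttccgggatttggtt
H2-Aa, chr17:34287824-34287923, minus strand: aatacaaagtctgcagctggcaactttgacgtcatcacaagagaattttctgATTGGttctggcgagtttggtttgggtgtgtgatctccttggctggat
H2-Eb1, chr17:34305767-34305866, plus strand: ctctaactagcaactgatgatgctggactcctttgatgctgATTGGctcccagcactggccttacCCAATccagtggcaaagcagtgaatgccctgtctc
Igtp, chr11:58199456-58199555, plus strand: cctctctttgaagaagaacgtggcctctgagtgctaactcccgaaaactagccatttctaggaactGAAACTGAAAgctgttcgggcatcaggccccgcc
Irgm2, chr11:58214877-58214976, plus strand: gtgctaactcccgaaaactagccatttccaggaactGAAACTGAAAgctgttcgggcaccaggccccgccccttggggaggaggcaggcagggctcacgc
Gbp2, chr3:142620563-142620662, plus strand: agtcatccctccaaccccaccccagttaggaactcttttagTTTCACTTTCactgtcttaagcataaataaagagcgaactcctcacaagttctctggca
Igtp and Irgm2 share the same GAAACTGAAA run, and Gbp2 holds its match on the other strand. In the full promoter windows of 250 bases before to 50 after the start, CCAAT on either strand was in 7 of the 7 class II members with a promoter in the table, and in 37.4% of all 32851 promoters. The GAAA repeat with 2 bases between, on either strand, was in 11 of the 14 interferon gamma members with a promoter, and in 3.44% of all promoters. A list member was counted where any of its promoters matched, while the shares of all promoters are over single promoters. The counts and shares are thus in different units. A match describes letters in the window and shows no binding.

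**Figure D4:**
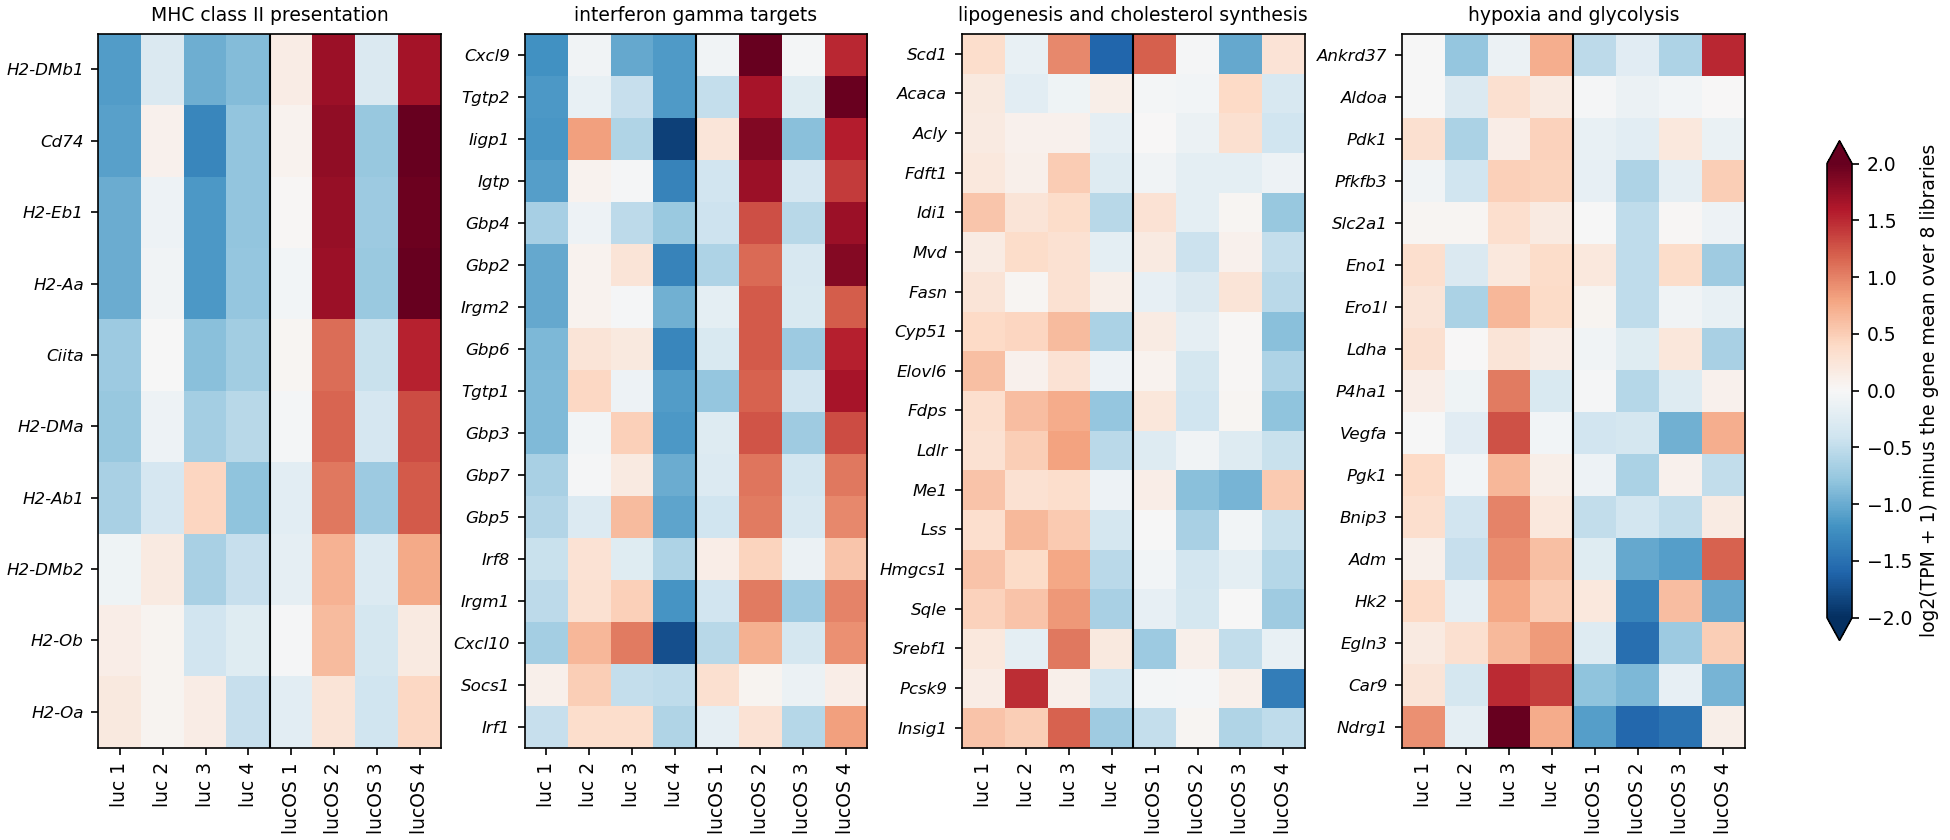
Heat map of log2(TPM + 1) in the 8 tumours, each gene centred on its mean over them, for members of the MHC class II, interferon gamma, cholesterol and fatty acid synthesis, and hypoxia lists. For H2-DMb1, H2-Aa and Cd74 the highest values are in lucOS 2 and lucOS 4.

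Class I presentation and type I interferon targets differed less. In the class I list 14 of 24 tested genes had a positive log2 fold change, with a median of 0.12. Tapbpl, an editor of the peptides bound to class I, was at 14.1, 20.5, 23.1 and 12.7 TPM in luc 1 to 4 and at 31.1, 36.5, 32.6 and 32.9 TPM in lucOS 1 to 4, with separate groups and a log2 fold change of 0.92 ± 0.19 (SE; adjusted p 0.33). B2m, the light chain of class I, had a log2 fold change of 0.16 that changed sign when single libraries were left out. Among type I interferon targets 17 of 19 were positive with a median of 0.27, and Usp18 (1.05) and Oas1a (1.13) had the smallest p, with overlapping groups in both.

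RNA of T cells was low in all 8 tumours. Of 19 T cell genes in the table, 8 reached the level for testing, and 6 of those 8 had a positive log2 fold change with a median of 0.23. Their summed level was 36.2, 43.7, 41.9 and 31.1 TPM in luc 1 to 4 and 34.0, 66.9, 30.3 and 61.1 TPM in lucOS 1 to 4, again highest in lucOS 2 and lucOS 4. Cd4, the helper T cell coreceptor that myeloid cells also carry, was at 0.956, 1.02, 0.905 and 1.84 TPM against 2.75, 5.19, 1.70 and 4.00 TPM. Its groups overlapped, since lucOS 3 lay below luc 4. The log2 fold change was 0.97, with a limma p of 0.0102 unadjusted and 0.439 adjusted. Tcf7, a factor of naive and memory T cells, had a log2 fold change of −0.80.

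The defining genes of cytotoxic T cells lay mostly under the level for testing and were compared one by one with exact two-sided permutation tests, which cannot go below p = 0.0286 here. Cd8a, the coreceptor of cytotoxic T cells, was at 0.133, 0.222, 0.321 and 0.164 TPM in luc 1 to 4 and at 0.240, 2.36, 0.499 and 5.54 TPM in lucOS 1 to 4. LucOS 2 and lucOS 4 stood above the other 6 tumours, the groups overlapped in lucOS 1, and the exact permutation p was 0.0571. Pdcd1, the checkpoint receptor PD-1, was at 0.151, 0.247, 0.317 and 0.425 TPM against 0.457, 2.46, 0.485 and 4.81 TPM. The Pdcd1 groups were separate, with lucOS 1 and lucOS 3 only just above luc 4.

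The 8 genes compared in this way were 7 lymphocyte genes and Afp, a fetal liver gene. Prf1 and Klrk1 were picked among the many lymphocyte genes under the level for testing, outside the rule for named genes, so a count of the 8 says nothing of such genes in general. All lucOS tumours lay above all luc tumours, as in 5.16% of the genes tested by limma, for Pdcd1, Ifng, Prf1, which encodes perforin, and Klrk1, which encodes the activating receptor NKG2D, each with the exact permutation p of 0.0286. Adjusted over the 8 genes, these p-values became 0.0572. For Ifng the groups were only just separate and near 0, at 0 to 0.0362 TPM in luc tumours and at 0.0366 to 0.34 TPM in lucOS tumours. Cd3e, a chain of the T cell receptor complex, was at 0.0871 to 0.422 TPM in luc tumours and at 0.391 to 2.15 TPM in lucOS tumours (exact permutation p 0.0857), and the granzyme gene Gzmb had a difference of 0.34 on the log2 scale (exact permutation p 0.171). Differences at levels near or under 1 TPM rest on few reads, whose number TPM does not give.

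Checkpoint and regulatory genes that reached the level for testing were positive in 6 of 7, with a median of 0.48. Tnfrsf9, the costimulatory receptor 4-1BB, was at 7.64, 8.37, 2.80 and 8.14 TPM in luc 1 to 4 and at 18.3, 11.8, 9.42 and 12.2 TPM in lucOS 1 to 4, with separate groups and a log2 fold change of 0.90 (adjusted p 0.466). Entpd1, the ectonucleotidase CD39 of regulatory T cells, macrophages and endothelium, had a log2 fold change of 1.15. Cd274, which encodes PD-L1, was at 1.41 to 3.55 TPM against 1.90 to 6.71 TPM (0.48), and Foxp3, the factor of regulatory T cells, at 3.85 to 5.19 TPM against 3.72 to 4.88 TPM (−0.17).

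Macrophage genes were mostly higher in lucOS tumours, with luc 2 as an exception. Their summed level was 581, 1458, 435 and 866 TPM in luc 1 to 4 and 1127, 1750, 794.5 and 1324 TPM in lucOS 1 to 4, so luc 2 and luc 4 lay inside the lucOS range. Of 16 tested members 14 had a positive log2 fold change (60.9% of all genes) with a median of 0.78, and 3 had an unadjusted p below 0.05 (7.04% of all genes higher). The 1 of 16 with separate groups is near the 5.16% of all genes. The count of 3 became 10 without luc 2, and 1 without luc 1, luc 3, lucOS 1, lucOS 2 or lucOS 4. Cd68, a lysosomal glycoprotein of macrophages, was at 30.1, 39.6, 18.2 and 43.3 TPM in luc 1 to 4 and at 60.4, 59.6, 53.4 and 47.7 TPM in lucOS 1 to 4, with a log2 fold change of 0.80 ± 0.25 (SE; adjusted p 0.439). Aif1 (1.16), which encodes IBA1, and Trem2 (0.79), a lipid receptor, had overlapping groups.

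Other immune lists had smaller medians. Ccl8, a chemokine for monocytes and T cells, was at 0.816 to 2.21 TPM in luc tumours and at 2.32 to 12.2 TPM in lucOS tumours (log2 fold change 1.58), with separate groups. Itgax, the integrin CD11c of dendritic cells and macrophages, had a log2 fold change of 0.95, but the 4 tested dendritic cell genes had a median of 0.10. B and plasma cell genes had a median of 0.19 over 13 tested, and their highest library was lucOS 2, with Jchain, which joins antibody units, at 95.9 TPM against at most 4.84 TPM in the other 7. The B cell receptor component Cd79a had a log2 fold change of −0.02. Monocyte and neutrophil genes had a median of −0.05 over 9 tested, and their summed level was 1068 TPM in luc 2 against 30.8 to 132 TPM in the other 7.

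Genes of cholesterol and fatty acid synthesis had lower levels with lucOS. Of 19 tested members 18 had a negative log2 fold change, against 39.1% of all genes, with a median of −0.46. Of the 19, 2 had an unadjusted p below 0.05 (3.21% of all genes in this direction). In Sqle, Insig1 and Lss, luc 4 lay inside or below the lucOS range. Sqle, squalene epoxidase, was at 118, 127, 157 and 54.2 TPM in luc 1 to 4 and at 76.4, 66.8, 85.2 and 51.9 TPM in lucOS 1 to 4 (log2 fold change −0.62). Insig1, which holds back SREBP processing, was at 30.3 TPM in luc 4 and at 71.5 to 116 TPM in the other 3 luc tumours, against 33.1 to 52.2 TPM in lucOS tumours (−0.76). Lss, lanosterol synthase, had a log2 fold change of −0.58 and the regulator Srebf1 of −0.63. Without luc 4, the count of members with an unadjusted p below 0.05 was 10 of 19, while it was 1 without luc 1 or luc 3.

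Genes of the response to low oxygen and of glycolysis were lower as well. Of 17 tested members 16 had a negative log2 fold change (39.1% of all genes), with a median of −0.39, and 4 had an unadjusted p below 0.05 (3.21% of all genes lower), a count that was 7 without luc 2 and 2 without luc 3 or lucOS 2. Ndrg1, a stress-responsive gene, was at 141, 64.9, 437 and 125 TPM in luc 1 to 4 and at 34.1, 24.3, 26.1 and 81.0 TPM in lucOS 1 to 4. LucOS 4 lay above luc 2, and the log2 fold change was −2.01 ± 0.59 (SE; adjusted p 0.439). Car9, the membrane carbonic anhydrase induced by hypoxia-inducible factors, was at 43.4, 28.1, 103 and 95.9 TPM against 20.3, 18.8, 32.0 and 18.4 TPM (−1.40), where only lucOS 3 lay above luc 2.

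Within the same list the glycolytic and feedback genes had smaller differences. Pgk1, phosphoglycerate kinase, was at 909, 665, 1092 and 745 TPM in luc 1 to 4 and at 642, 445, 729 and 488 TPM in lucOS 1 to 4 (log2 fold change −0.57). Egln3, an oxygen-sensing prolyl hydroxylase, had a log2 fold change of −1.01. Slc2a1, the glucose transporter GLUT1, had separate groups with all lucOS tumours below and a log2 fold change of −0.30, and Ldha, lactate dehydrogenase A, was at −0.37 with overlapping groups. Mir210, described above, was also lower with lucOS and was listed at 0 in lucOS 3.

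Respiratory chain genes had slightly higher levels with lucOS. All 16 tested members had a positive log2 fold change (60.9% of all genes), with a median of 0.32 (0.22 under median ratio scaling). Of the 16, 5 had an unadjusted p below 0.05 (7.04% of all genes higher), a count that was 2 without lucOS 2 and 3 without lucOS 1, and 5 had separate groups (5.16% of all genes). Cox7a1, a subunit of cytochrome c oxidase, was at 29.1, 21.3, 20.1 and 33.4 TPM in luc 1 to 4 and at 54.2, 70.3, 42.8 and 44.8 TPM in lucOS 1 to 4, a log2 fold change of 1.00 ± 0.22 (SE; adjusted p 0.33). The complex I subunits Ndufs1 and Ndufa1 each had a log2 fold change of 0.46, the complex II subunit Sdha 0.31 and Cox6c 0.32, all with separate groups. For Cox6c luc 3 was far below the other luc tumours, at 274 TPM against 424 to 430 TPM.

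Fatty acid oxidation genes were positive in 13 of 18 tested, with a median of 0.31. Hadha, the alpha subunit of the mitochondrial trifunctional protein, was at 128, 124, 102 and 146 TPM in luc 1 to 4 and at 192, 172, 160 and 180 TPM in lucOS 1 to 4. All lucOS tumours lay above, with a log2 fold change of 0.50 ± 0.13 (SE; adjusted p 0.375). Acadm, medium-chain acyl-CoA dehydrogenase, also had separate groups (0.55), while Hadhb, the partner subunit of Hadha, overlapped in lucOS 3 (0.46).

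Targets of p53 had higher levels in 15 of 16 tested members (60.9% of all genes), with a median of 0.54. Of the 16, 4 had an unadjusted p below 0.05 (7.04% of all genes higher), a count that was 7 without luc 1, and 3 had separate groups (5.16% of all genes). Fas, a death receptor, was at 5.81, 5.99, 5.37 and 6.40 TPM in luc 1 to 4 and at 11.1, 9.34, 7.66 and 9.50 TPM in lucOS 1 to 4. Perp, a desmosomal protein, was at 1119, 1078, 636 and 892 TPM against 1179, 1272, 1516 and 1622 TPM. Fas (log2 fold change 0.59), Perp (0.61) and Mdm2, the ubiquitin ligase that degrades p53 (0.37), were those 3, with an adjusted p of 0.417, 0.445 and 0.447. Ccng1, cyclin G1, had a log2 fold change of 1.21 and the cell cycle inhibitor Cdkn1a of 0.92, both with overlapping groups and lucOS 1 highest. Hsph1, a heat shock protein of the HSP110 family and no p53 target, was at 30.8 to 65.3 TPM in luc tumours and at 87.3 to 188 TPM in lucOS tumours (1.33), also highest in lucOS 1.

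Genes of proliferation and MYC targets had medians slightly below 0, and that sign rested on lucOS 4 for both. Over 22 proliferation genes 5 had a positive log2 fold change (60.9% of all genes) with a median of −0.19, which became 0 of 22 and −0.29 under median ratio scaling and 0 of 22 under quantile normalization. Without lucOS 4, 17 of 22 were positive and the median was 0.11. Mki67, the marker of cycling cells, was at 57.9 to 94.6 TPM in luc tumours and at 35.4 to 90.6 TPM in lucOS tumours. Over 22 MYC targets 7 were positive with a median of −0.09, and 3 of 22 with −0.19 under median ratio scaling or 4 of 22 under quantile normalization. Myc itself had a log2 fold change of −0.13.

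The NOTCH pathway list had 13 of 23 positive with a median of 0.07, which is close to that of all genes. Its downstream genes Dtx4 and Hes5 were lower with lucOS and highest in luc 3. Dtx4, a deltex ubiquitin ligase, was at 24.4, 26.8, 68.7 and 19.3 TPM in luc 1 to 4 and at 14.6, 8.16, 10.0 and 11.4 TPM in lucOS 1 to 4, with separate groups and a log2 fold change of −1.42 ± 0.37 (SE; adjusted p 0.375). Hes5, a repressor induced by NOTCH, was at 16.2, 29.3, 65.8 and 10.3 TPM against 9.46, 1.93, 11.8 and 3.87 TPM (−1.92). The ligand gene Dll4 (0.76), the coactivator Maml2 (0.57) and the glycosyltransferase Rfng (0.46) had higher values with lucOS. Hes1 was at 37.1 to 173 TPM against 34.0 to 67.0 TPM (−0.78) and the biliary factor Sox9 at 5.10 to 113 TPM against 3.62 to 16.4 TPM (−1.53), in both with luc 3 as the highest of the 8.

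Matrix genes were split. Of 19 tested members of the matrix remodelling list 9 were positive, 2 had an unadjusted p below 0.05 on the higher side, near the 7.04% of all genes, and 6 on the lower (3.21% of all genes). Higher values were those of the proteases Mmp13, given above, and Mmp12, macrophage elastase, at 3.51 to 7.35 TPM in luc tumours and at 9.13 to 22 TPM in lucOS tumours (log2 fold change 1.05). Lower values were those of Snai1, given above, of Timp1, an inhibitor of metalloproteinases, at 16.6 to 27.8 TPM against 12.1 to 14.3 TPM (−0.70), of Vim, the intermediate filament vimentin (−0.37), and of Cdh2 (−1.01), Lox (−0.69) and Tnc (−1.58). Groups were separate for Mmp12, Mmp13, Snai1, Timp1 and Vim, and they overlapped for Cdh2, Lox and Tnc.

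Hepatocyte genes varied widely within both groups. All 19 tested secreted hepatocyte proteins had a positive log2 fold change with a median of 0.93, but their summed level was 3419, 22430, 4584 and 1141 TPM in luc 1 to 4 and 13380, 28030, 2377 and 7486 TPM in lucOS 1 to 4, against 179400 to 222200 TPM in healthy liver. The groups overlapped widely, and the median was 0.22 without luc 4 and 0.36 without lucOS 2. Ttr, transthyretin, was at 18.4 to 271 TPM in luc tumours and at 36.9 to 775 TPM in lucOS tumours (1.75). The pericentral enzyme gene Cyp2e1 was at 22.6, 71.9, 40.0 and 27 TPM in luc 1 to 4 and at 227, 553, 22.9 and 144 TPM in lucOS 1 to 4 (1.95), high in 3 lucOS tumours and low in lucOS 3. The bile acid and xenobiotic genes were positive in 17 of 17 tested, with a median of 0.49 and none at an unadjusted p below 0.05. The part of hepatocyte content in the results above was not tested.

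Some genes were by far highest in 1 or 2 tumours, and those named in this paragraph were chosen after their values were seen. Cnmd, which encodes chondromodulin, was at 844, 53.8, 1831 and 5.03 TPM in luc 1 to 4 and at 5.25, 1.14, 0.739 and 7.34 TPM in lucOS 1 to 4. Wnt4, a WNT ligand, was at 85.4 TPM in luc 1 and 390 TPM in luc 3 against at most 3.28 TPM in the other 6. The hormone gene Fgf15 was at 170 and 601 TPM in the same tumours, at 43.0 TPM in luc 2 and at most 8.52 TPM in the rest. Luc 1 and luc 3 thus shared the highest Cnmd, Wnt4 and Fgf15, with luc 2 next for Cnmd and Fgf15. S100a9, of neutrophils, was at 399 TPM in luc 2, the smooth muscle gene Tagln at 1281 TPM in luc 4, the biliary keratin Krt19 at 1153 TPM in lucOS 3, and the globin Hba-a1 at 991 TPM in lucOS 4. Globin genes have near-identical copies, so the split of their reads is uncertain.

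The same contrast in the other 12 tumours, 6 luc and 6 lucOS, called 0 of 14784 genes by limma (0%), with 779 (5.27%) at an unadjusted p below 0.05 and 53.5% of log2 fold changes above 0. The test of the difference between the 2 series called 0 of 15453 genes, with 1842 (11.9%) at an unadjusted p below 0.05. The difference test did not pass for any gene described here, so no effect is shown to be particular to the AL75 tumours.

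Antigen presentation genes had positive medians in both series. The MHC class II list had a median of 1.09 over 10 tested genes in the AL75 tumours and 0.89 over 7 in the others. Interferon gamma targets had 0.86 over 18 and 0.50 over 17. The log2 fold changes were 1.49 and 1.19 for H2-Aa and 1.54 and 0.89 for Cd74. Respiratory chain genes were positive in 16 of 16 in both, with medians of 0.32 and 0.11. Macrophage genes had medians of 0.78 and 0.03.

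Many other lists had medians of opposite sign in the 2 series, and 4 of them are given here. Among those not described further were red blood cell genes (0.81 in the AL75 tumours and −0.49 in the others) and complement and acute phase genes (0.48 and −0.29). Cholesterol and fatty acid synthesis genes had a median of −0.46 in the AL75 tumours and 0.22 in the others, where 16 of 19 were positive. For the difference, 11 of 19 had an unadjusted p below 0.05 by limma (11.9% of all genes), and none passed the adjustment. Hypoxia and glycolysis genes had medians of −0.39 and 0.12, proliferation genes −0.19 and 0.18, and secreted hepatocyte proteins 0.93 and −0.44, the last with 0 of 19 positive in the other series. Mir210 had a log2 fold change of −2.53 in the AL75 tumours and 0.89 in the others.

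**Figure D5:**
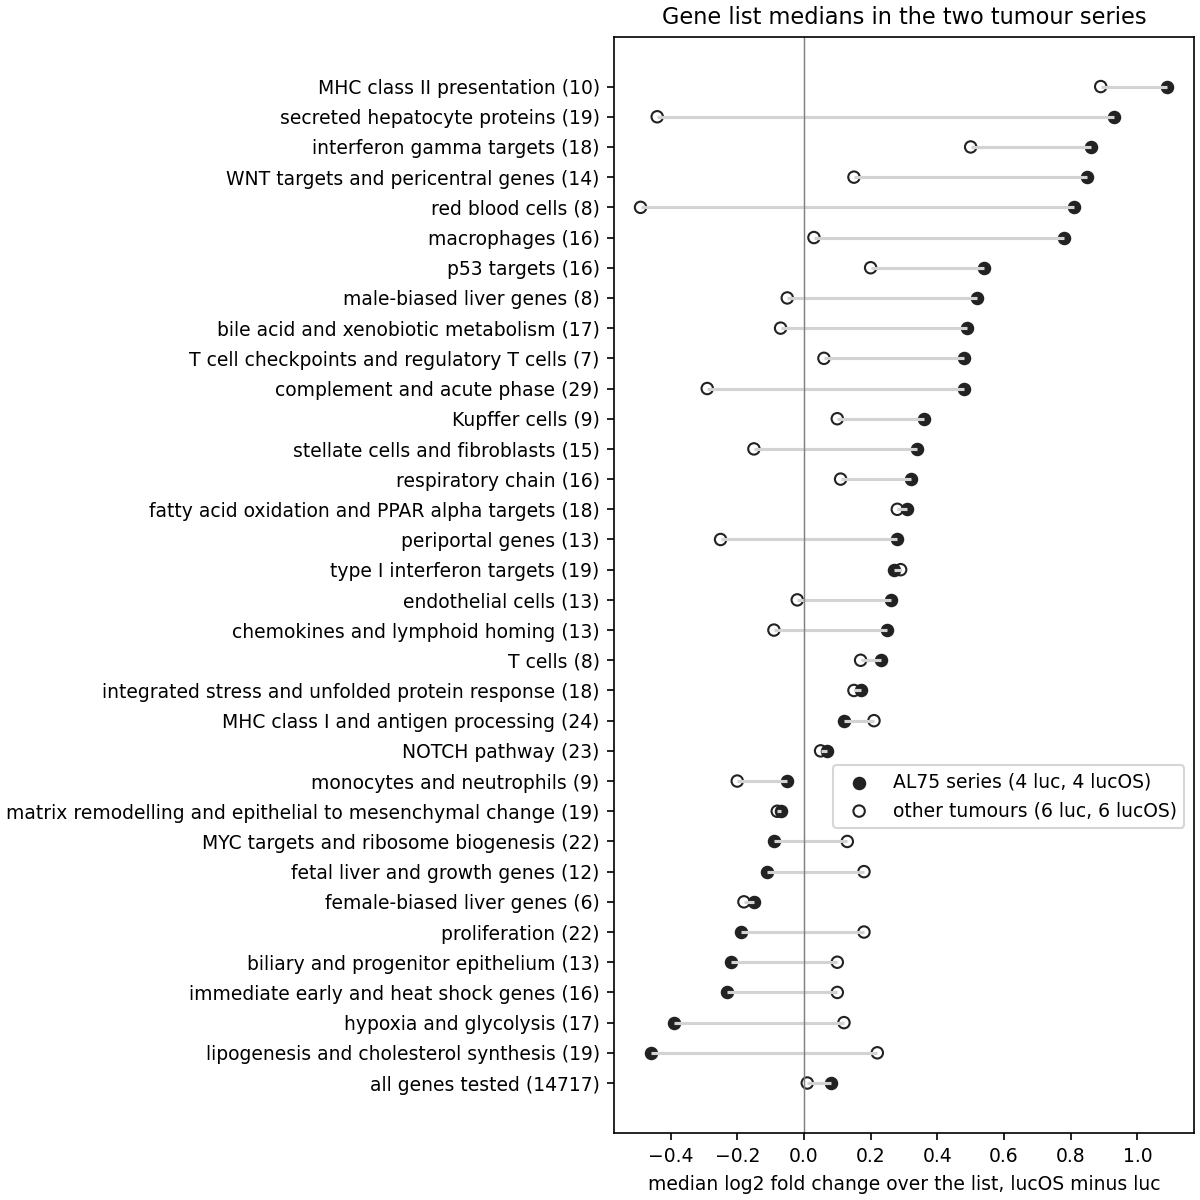
Median log2 fold change, lucOS minus luc, on the x axis for each of 33 gene lists and for all genes. Filled points are the AL75 tumours and open points the other 12 tumours, each over the genes tested in that series. MHC class II lies at 1.09 and 0.89, cholesterol and fatty acid synthesis at −0.46 and 0.22, and secreted hepatocyte proteins at 0.93 and −0.44.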

How the data were processed

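RNA of 26 bulk mouse libraries was extracted with Trizol, treated with DNase I and sequenced from TruSeq RNA libraries, per the labels' protocols. The values are TPM per gene in 1 table deposited by the authors. The submitters' processing notes name mm10, TopHat2, featureCounts and DESeq2, without roles or versions. How reads were divided between similar genes and whether counting used strand is not given in the sources used here. TPM keeps no depth, so the number of reads behind a value is unknown, and no interval for counting error can be given. The 8 libraries had 18263 to 19145 genes above 0 TPM, and their sums lay within 256.3 of 1000000. The table holds no mitochondrially encoded genes, so no mitochondrial share was computed.

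Of 24063 table entries, 27 whose names had turned into dates and 2 under a shared name were left out. Symbols were matched to RefSeq names: 23020 were current, 858 were older and 156 had no unique match. Levels were taken as log2(TPM + 1) and compared with limma 3.58.1 under R 4.3.3, using a mean-dependent trend and robust estimation of the spread, with Benjamini-Hochberg adjustment over all genes tested. Single genes under the filter and the microRNA share used exact permutation tests (scipy 1.17.1). The procedure was tested on simulated data. Alternatives were pseudocounts of 0.1 and 5, other filters, median ratio scaling, quantile normalization, microRNA and snoRNA genes left out, array weights, no trend, a spread taken from all 20 tumours, and each library left out. The fits of the 20-library spread without single libraries or with other scalings, and the list counts under each setting, were added after seeing the data.

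The members and the gene lists were chosen with earlier results of these data known, so lists are described by counts and medians with no test of a list. Named genes were the 10 with the smallest p in each direction with at least 5 TPM in the higher group, 2 members with the smallest p of each list described, and a set of immune, liver and oncogene markers, leaving out predicted genes, pseudogenes and small RNAs. Further members, genes of the 20-library calls and Mir210 were named for their roles after their values were seen. Some genes under this rule are not reported here.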

Additional observations from a re-analysis of the deposited data

Results flagged for a closer look

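For most genes named here, some others and the summed levels of chosen lists, the 4 libraries of a group were searched for 1 far from the other 3. The measure was the gap to its nearest neighbour divided by the range of the group. The cell type lists were macrophages, monocytes and neutrophils, B and plasma cells, red blood cells, stellate cells and secreted hepatocyte proteins. The pathway lists were MHC class II, interferon gamma, cholesterol and fatty acid synthesis, hypoxia and respiratory chain. Sums of other lists, such as T cells and Kupffer cells, were not searched. Of 372 groups, 29 passed Dixon's 95% critical value for 4 samples. Chance gives about 1 in 20 for independent groups not chosen by their values. Some genes here were named after their values were seen, and some are also part of a searched sum. The 29 therefore cannot be weighed against that rate. The library standing apart was luc 2 in 6 cases, luc 3 in 6, lucOS 2 in 5, lucOS 4 in 5, lucOS 3 in 3, luc 1 in 2, and luc 4 and lucOS 1 in 1 each.

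In luc 2, the neutrophil genes S100a9 (ratio 0.928, at 399 TPM) and Chil3 (0.83, at 145 TPM) were high, as was the summed level of monocyte and neutrophil genes (0.934, at 1068 TPM). Cxcl9 (0.833, at 1.43 TPM) and Acaa1a (0.917, at 68.2 TPM) were also high in luc 2, and Nrarp was low (0.963, at 982 TPM). In luc 3, Cox6c (0.965, at 274 TPM), Hadhb (0.851), Tnfrsf9 (0.91, at 2.80 TPM), Samhd1 (0.866, at 27.4 TPM) and Foxp3 (0.901, at 3.85 TPM) were low, and Trib3, a stress-induced pseudokinase, was high (0.865, at 25.3 TPM). In luc 1, Myc (0.882, at 9.47 TPM) and the Y-linked Kdm5d (0.86, at 4.83 TPM) were low. In luc 4, Cd4 was high (0.85, at 1.84 TPM).

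In lucOS 2, plasma cell genes were high: Jchain (0.8292, at 95.9 TPM), Mzb1 (0.974, at 22.3 TPM) and the summed B and plasma cell level (0.838, at 181 TPM). Adgrd1 (0.835, at 59.3 TPM) and the hepatocyte gene Vtn (0.849, at 680 TPM) were also highest there. In lucOS 4, Mfap2 (0.982, at 14.0 TPM), Hes1 (0.934, at 67.0 TPM), Rfng (0.831, at 29.1 TPM) and the elastase gene Cela1 (0.921, at 6.33 TPM) were high, and Notch1 was low (0.83, at 569 TPM). In lucOS 3, Car9 (0.8291, at 32.0 TPM) and Vangl2 (0.835, at 13.7 TPM) were high, and Sdha was low (0.891, at 295 TPM). In lucOS 1, Hsph1 was high (0.847, at 188 TPM).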

How the results depend on the processing

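The count of 0 genes between lucOS and luc in the 8 libraries was also 0 under pseudocounts of 0.1 and 5, no filter, median ratio scaling, quantile normalization, and no trend and no robust spread. It was 1 with a filter of 5 TPM and 1 without microRNA and snoRNA genes, in both cases Adgrd1. Adgrd1 met the 5 TPM filter through its lucOS tumours alone. The count was 8 with array weights (6 higher and 2 lower) and 54 with the spread of all 20 tumours. Leaving out each library gave 0 to 2, the 2 being Adgrd1 and Mmp17 without luc 4. The 0 calls in the other 12 tumours held under all 10 alternatives, and the test of the difference between the series gave 0 to 1 without single libraries, the 1 again without luc 4.

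The count of 54 in the 20-library fit ranged from 0 to 578 without single libraries. Of the 54 genes, 34 were still called without luc 1, 9 without luc 2, 3 without luc 3, 53 without luc 4, 6 without lucOS 1, 0 without lucOS 2, 47 without lucOS 3 and 17 without lucOS 4. It was 49 under median ratio scaling (21 higher and 28 lower), 61 under quantile normalization (33 and 28) and 69 with array weights (35 and 34). The cause was not tested. For the 167 genes refitted, the direction held in all but 2 cases under settings other than leaving out a library: with array weights Myc had a log2 fold change of 0.21 and Uty of −0.11. Without single libraries the log2 fold change changed sign for Cd79a (−0.26 to 0.12), Notch1 (−0.06 to 0.41), Tagln (−0.48 to 1.28), B2m (−0.15 to 0.49), Jchain (−0.26 to 1.67), Krt19 (−1.13 to 0.50), Ddx3y (−0.36 to 0.30), Myc (−0.31 to 0.03), Uty (−0.01 to 0.26) and Mki67 (−0.35 to 0.10). With 3 libraries against 4, a two-sided permutation p taken as the smaller tail doubled cannot pass 0.05, so Ifng, Pdcd1, Prf1 and Klrk1 were not below it in any such comparison. List medians changed sign without lucOS 4 for proliferation genes, as given above, for MYC targets (0.07) and for fetal liver genes (0.02). They also did for class I genes without luc 4 (−0.19), lucOS 2 (−0.02) or lucOS 4 (−0.05), and for B and plasma cell genes without lucOS 2 (−0.13). The median of monocyte and neutrophil genes changed sign without luc 2 (0.47) or lucOS 3 (0.10) and at a pseudocount of 0.1 (0.02). That of NOTCH genes did so without luc 2 (−0.03) and with array weights (−0.08). No paired analysis was possible because the labels give no replicate numbers that tie a luc tumour to a lucOS tumour. The depth behind low levels, such as those of Cd8a and Mir210, is unknown.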

Other observations

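Clec4f, a lectin by which resident liver macrophages are recognised, was at 3.61, 26.7, 3.03 and 0.235 TPM in luc 1 to 4 and at 23.7, 32.5, 1.46 and 10.2 TPM in lucOS 1 to 4. It was highest in luc 2, lucOS 1 and lucOS 2, the 3 tumours in which the summed level of secreted hepatocyte proteins was also highest (22430, 13380 and 28030 TPM). Red blood cell genes had a median log2 fold change of 0.81 over 8 tested, which was 0.08 without lucOS 4. The pancreatic elastase gene Cela1 had a log2 fold change of −1.25, and the lung surfactant gene Sftpc, a marker of another tissue, of 0.55. Sftpc was at 7.42 to 22.7 TPM in luc tumours and at 11.4 to 30.8 TPM in lucOS tumours. In the other series it was at most 0.323 TPM with luc and 0.126 TPM with lucOS, and in healthy liver at most 0.108 TPM. The cause of that difference between the series was not tested. Afp, the fetal albumin of liver and its tumours, was at 3.02, 6.69, 0.629 and 18.9 TPM in luc 1 to 4 and at 0.825, 0.955, 0.389 and 0.696 TPM in lucOS 1 to 4, with an exact permutation p of 0.114.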
